A study of Mus musculus with 12 samples.

Results

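The 1455 genomic regions described here were accessible in FoxA2-positive cells of wild-type mouse embryos and had no called peak in the FoxA2-positive cells of embryos whose FoxA2 lacks an alpha helix. Accessibility was measured by ATAC-seq, in which a transposase cuts open chromatin, at embryonic day 7.5, during gastrulation. All 12 samples came from embryos homozygous for a knock-in Foxa2 allele fused to tagRFP through a flexible linker. In the WT groups the fused protein was otherwise intact (FoxA2-WT-tagRFP), and in the mutant groups it also lacked 10 amino acids of the helix (FoxA2-deltaHx-tagRFP, here dHx). Both alleles were kept on a mixed background of C57Bl6/J and CD-1, the extraembryonic part was cut off, and male and female embryos were not separated. By tagRFP brightness the dissociated cells were sorted as High (brighter than heterozygous cells), Middle (up to the brightness of heterozygous cells) and Negative, which gave 6 groups of 2 samples. The deposited data are 1 peak list per group, made from the pooled samples, so no value had a replicate and no difference was tested.

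The 6 lists were merged over chromosomes 1 to 19 wherever peaks overlapped by at least 1 bp, which gave 93083 union regions. A region was called lost when it held a peak in WT High and in WT Middle and none in WT Negative, dHx High or dHx Middle. Lost regions made up 1.56% of all union regions. The 7046 regions in WT High and WT Middle but not WT Negative are called WT RFP-positive here, and 20.7% of them were lost (95% interval 19.7 to 21.6%, exact Clopper-Pearson, counting error only). Another 3324 (47.2%) were kept, with a peak in both dHx High and dHx Middle. Of the others, 895 (12.7%) had a peak in dHx High alone of the 2 and 1372 (19.5%) in dHx Middle alone. Members were chosen by peak presence in these 5 lists, so these values and the peak scores are a description. The dHx Negative list was not used in the choice.

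FoxA2, a forkhead transcription factor, is made in the definitive endoderm, the node and the notochord. It is known as a pioneer factor, a protein that binds its target letters in DNA still wrapped around histones and precedes the opening of that chromatin. Open regions away from gene starts often act as enhancers, the sequences through which such factors raise the activity of a gene at a distance. A peak says that chromatin was open, not which factor was bound, and in bulk cells a smaller fraction of open cells cannot be told apart from less opening in each cell.

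The first sequences show what letters lie at gene starts inside lost regions. Promoter sequence was available from RefSeq (GRCm38.p6, the assembly that mm10 names) and was printed as the 250 bases before the listed start, 5′ to 3′ on the strand of the gene. Forkhead factors bind variants of TGTTTAC, and TGTTTAC was searched on both strands, as were the variant letters TGTTTGC, followed by the variant letters TATTTAC, and finally the letters TGTTGAC. Genes with Gm and Pramel symbols were left out. The protein-coding promoters shown had a match in these bases that a lost region covered at least in part, with the match in capitals. They are Apoa1 (chr9:46228380-46228629, + strand), the main apolipoprotein of HDL and made by visceral endoderm, Pde4c (chr8:70723814-70724063, + strand), a cAMP phosphodiesterase, and Trp53rkb (chr2:166793517-166793766, + strand), a p53-related kinase copy.
Apoa1: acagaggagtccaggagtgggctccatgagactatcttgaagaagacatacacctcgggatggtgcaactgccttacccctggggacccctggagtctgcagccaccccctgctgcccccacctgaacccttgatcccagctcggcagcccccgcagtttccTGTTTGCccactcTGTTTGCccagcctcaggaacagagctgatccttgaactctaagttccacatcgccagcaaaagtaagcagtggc
Pde4c: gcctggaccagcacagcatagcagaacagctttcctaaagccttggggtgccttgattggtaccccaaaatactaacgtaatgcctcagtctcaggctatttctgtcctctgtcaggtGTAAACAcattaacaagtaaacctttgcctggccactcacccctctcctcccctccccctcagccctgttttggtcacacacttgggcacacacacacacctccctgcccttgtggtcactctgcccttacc
Trp53rkb: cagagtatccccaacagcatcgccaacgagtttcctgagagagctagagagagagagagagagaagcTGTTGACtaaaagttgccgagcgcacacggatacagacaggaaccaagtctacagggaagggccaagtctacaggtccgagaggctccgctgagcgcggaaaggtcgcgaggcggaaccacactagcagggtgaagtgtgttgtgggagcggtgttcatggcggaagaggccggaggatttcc

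The Apoa1 promoter held TGTTTGC at positions -88 and -75, counted from the start of transcription, both inside the lost region chr9:46228459-46228795. In Trp53rkb the lost region chr2:166793575-166794023 covered the TGTTGAC at position -183. In Pde4c the letters at position -132 read GTAAACA, which is TGTTTAC on the other strand, and the lost region chr8:70723425-70723935 ended within them. A match is a description of letters and not evidence of binding.

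The next sequences show how alike some lost regions were, since a count of regions treats each copy as a separate place. Gm6346 (chr5:93920035-93920284, + strand) and Pramel40 (chr5:94297743-94297992, + strand) are genes of the PRAME-like families of chromosome 5. Each had a lost region over its listed start. Their promoters shared 247 of 250 bases, and capitals in Pramel40 mark the bases that differ from Gm6346. The promoter of Gm6348 (chr5:95585863-95586112, + strand), also in a lost region, was the same as that of Gm6346 in all 250 bases.
Gm6346: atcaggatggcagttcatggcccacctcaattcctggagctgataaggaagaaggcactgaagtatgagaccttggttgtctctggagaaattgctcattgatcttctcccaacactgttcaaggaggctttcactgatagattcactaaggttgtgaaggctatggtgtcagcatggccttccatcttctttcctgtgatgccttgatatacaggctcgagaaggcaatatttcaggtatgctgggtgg
Pramel40: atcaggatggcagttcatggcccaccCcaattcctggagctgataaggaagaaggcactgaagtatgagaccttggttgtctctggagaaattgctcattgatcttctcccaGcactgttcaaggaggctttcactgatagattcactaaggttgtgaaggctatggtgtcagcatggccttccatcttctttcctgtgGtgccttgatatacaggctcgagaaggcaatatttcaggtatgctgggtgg

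Most lost regions were weak peaks in the WT lists. The authors' peak score is taken here as −log10 of a q-value or p-value, and it is used only within its own list. Lost regions had a median score of 3.97 in WT High, where kept regions had 9.29, and of 4.73 in WT Middle, where kept regions had 8.45. Dividing the pileup behind each score by the background fitted to that list gives an estimated fold over background, which compares between lists only if the authors built all 6 in the same way. The median fold of lost regions was 6.82 in WT High and 6.02 in WT Middle, against 12.5 and 8.69 for kept regions. The median width was 522 bp for lost regions (range 214 to 3850 bp), 694 bp for kept regions and 451 bp for all regions. Width spans the merged peaks of every list with a peak there. By the choice kept regions hold peaks of more lists than lost regions, so the order of these widths is at least partly built in. The weakest members stood at the lowest score of the WT High list, 2.19, and at that of the WT Middle list, 2.35.

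The share lost fell with WT peak strength and then levelled. Strength is the lower of the region's 2 score percentiles in the WT High and WT Middle lists. Below the 20th percentile 756 of 2143 WT RFP-positive regions were lost (35.3%, interval 33.3 to 37.3%), and between 20 and 40 the number was 363 of 1599 (22.7%). From 40 to 60 it was 224 of 1821 (12.3%) and from 60 to 80 it was 83 of 1158 (7.17%). From 80 to 90, 20 of 226 regions were lost (8.85%), and above 90 the number was 9 of 99 (9.09%, interval 4.24 to 16.6%). The kept share took the opposite course, from 27.5% in the weakest class to 78.8% in the strongest.

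**Figure D1:**
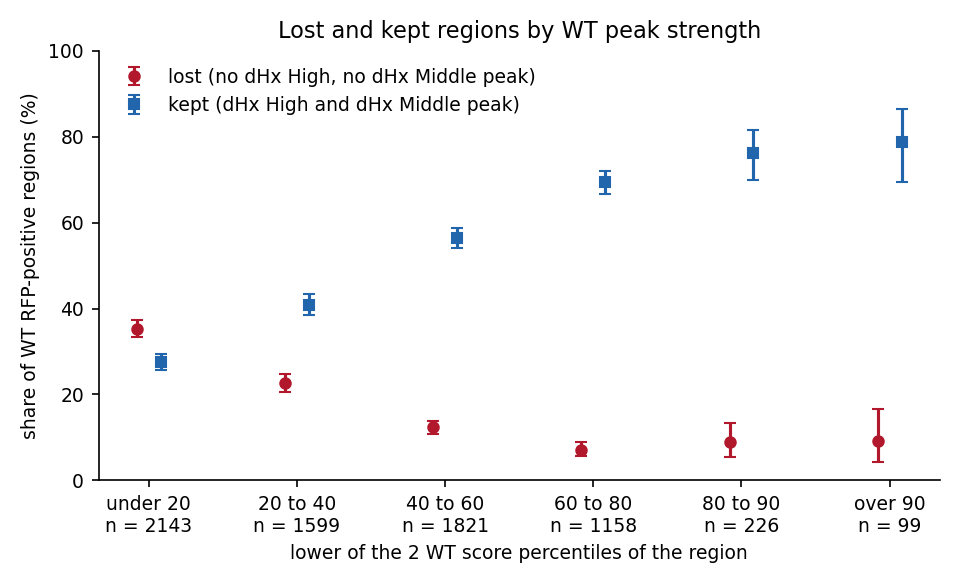
Share of WT RFP-positive regions that were lost (circles) or kept (squares), in percent, by class of WT peak strength, with exact 95% binomial intervals and the number of regions under each class. The lost share falls from 35.3% in the weakest class to between 7.17% and 9.09% in the 3 strongest, while the kept share rises from 27.5% to 78.8%.

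The dHx High and dHx Middle lists began at higher estimated folds than the WT lists. The fitted background, which stands in for relative depth, was 0.879 pileup per base in WT High and 0.476 in dHx High, and 1.496 in WT Middle and 0.786 in dHx Middle. The lowest fold in a list was 4.55 in WT High, 4.01 in WT Middle, 6.30 in dHx High and 5.09 in dHx Middle. At 527 lost regions (36.2%) the WT High fold lay under the lowest fold of dHx High, and at 404 (27.8%) the WT Middle fold lay under the lowest of dHx Middle. At least 1 of these held for 756 lost regions (52.0%) and for 590 kept regions (17.7%). These are the same regions as the class below the 20th percentile of strength, since the scores under that percentile are those with folds under the dHx limits. The 35.3% lost in that class is thus the share among regions with at least 1 WT fold under the lowest of the matching dHx list. The other 699 lost regions (48.0%) had WT folds at or above the lowest fold of both dHx lists. At kept regions the median fold was 12.5 in WT High and 16.8 in dHx High, and 8.69 in WT Middle and 12.7 in dHx Middle. Kept regions had to hold dHx peaks, whose lowest folds are higher, so this difference is at least partly built in. Folds of the 2 genotypes may also not share 1 scale, and the split is an estimate. The part that depth has in the loss was not tested.

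A smaller set stood well clear of these limits. Both WT folds were at least 2 times the lowest fold of the matching dHx list in 946 WT RFP-positive regions. Of these 77 were lost (8.14%, interval 6.48 to 10.1%) and 714 were kept (75.5%). All 77 lay outside the 1-Mb bins that were densest in regions.

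**Figure D2:**
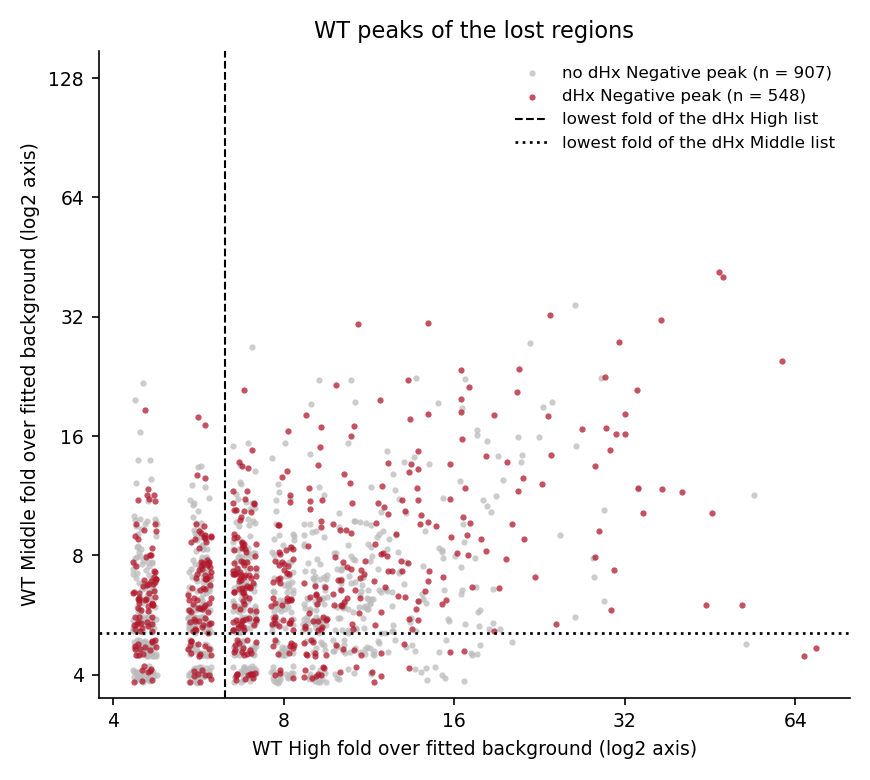
Estimated fold over fitted background in WT High (horizontal, log2 axis) and WT Middle (vertical, log2 axis) for the 1455 lost regions, 1 point each, moved slightly at random along both axes because folds take few values. The dashed and dotted lines mark the lowest folds of the dHx High (6.30) and dHx Middle (5.09) lists, and red points are the 548 regions with a dHx Negative peak.

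The lists with the genotypes exchanged gave a mirror count. Of 4798 regions in dHx High and dHx Middle but not dHx Negative, 667 (13.9%) had no peak in WT High or WT Middle, and these are called gained. Lost regions outnumbered gained ones in the lists as deposited. The order of the counts changed with the peaks that were admitted. With every list cut to the length of the shortest the counts were 781 lost and 1047 gained, and with 1 common fold floor in every list they were 593 and 1272. Both cuts left the dHx High list whole, since it was the shortest and set the floor. They took peaks from the WT lists and from dHx Negative. A region whose WT or dHx Negative peaks were cut could thus be counted as gained. Other settings cut no list and judged absence in the full lists. With peaks in the upper 50% of the scores of their lists, 172 regions were lost and 33 gained. The median fold of all peaks in a list was 9.10 in WT High and 7.36 in WT Middle, but 14.7 in dHx High and 10.2 in dHx Middle. With both folds at least 2 times the lowest of dHx High and dHx Middle, 77 were lost and 87 gained. The cause of the changed order was not tested.

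The RFP-negative cells of the mutant gave the list that the choice did not use. A dHx Negative peak was present at 548 of 1455 lost regions (37.7%, interval 35.2 to 40.2%), beside 49.8% of all union regions and 38.7% of WT RFP-positive regions. The share at kept regions was 39.7% (38.0 to 41.4%), so the share at lost regions was near that of the WT RFP-positive regions as a whole and below that of all regions. None of these regions had a WT Negative peak, which the choice fixed. In the mirror set, 104 of 667 gained regions (15.6%) had a WT Negative peak, beside 39.5% of all regions. The 39.5% is not a like comparison, since all regions were not chosen by their lists. The matching base is the 4798 regions in dHx High and dHx Middle but not dHx Negative, which include the gained ones. There a WT Negative peak was also present at 493 regions with both WT High and WT Middle peaks. It was present at 159 with WT High alone of these 2 and at 126 with WT Middle alone. The dHx Negative list was the longest, with 50424 peaks and a background of 1.57, and the WT Negative list held 39569 peaks with a background of 1.08.

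Among lost regions the share with a dHx Negative peak differed by strength. It was present at 32.1% of lost regions below the 20th percentile of strength, at 40.2% from 20 to 40, at 41.5% from 40 to 60 and at 57.8% from 60 to 80. Above 60 it was present at 66 of 112 lost regions (58.9%, interval 49.2 to 68.1%) and at 421 of 1054 kept regions (39.9%, interval 37.0 to 43.0%). The 49.8% of all union regions lies inside the interval of these lost regions. In the set clear of the dHx limits the shares were 48 of 77 lost regions (62.3%, interval 50.6 to 73.1%), 283 of 714 kept regions (39.6%, interval 36.0 to 43.3%) and 426 of all 946 WT RFP-positive regions (45.03%, interval 41.8 to 48.3%). These are shares over regions of single lists, and no test was made. Lost regions with a dHx Negative peak had a median fold of 6.38 there, and their median width was 674 bp, against 448 bp for those without. The dHx Negative peak is itself part of the merged width, so that difference is at least partly built in.

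**Figure D3:**
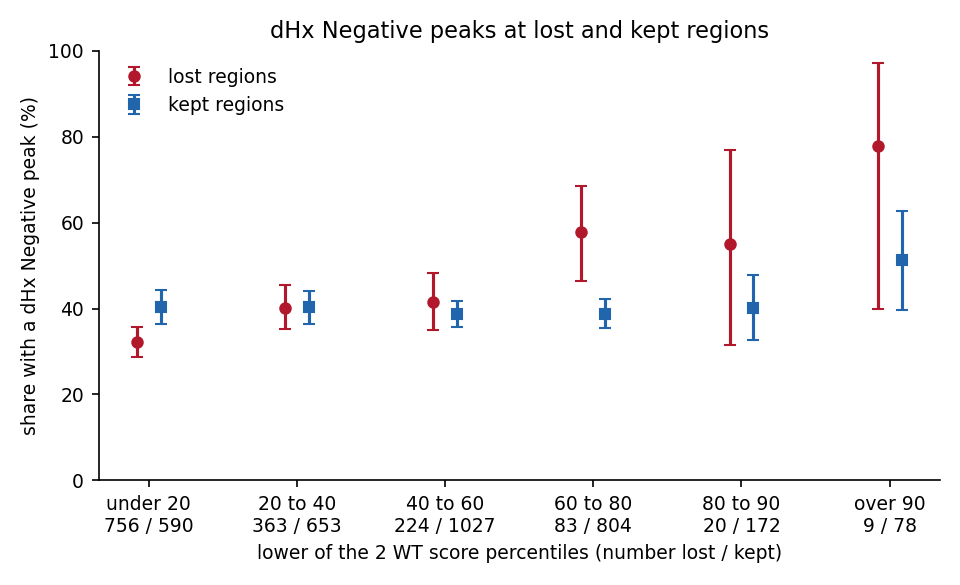
Share of lost (circles) and kept (squares) regions that held a peak in the dHx Negative list, in percent, by class of WT peak strength, with exact 95% binomial intervals and the numbers lost and kept under each class. Kept regions stay near 40% up to the 90th percentile, while lost regions go from 32.1% in the weakest class to 57.8% between 60 and 80.

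The 15 lost regions of highest strength are described next. All had a strength above the 86th percentile, 8 lay inside a protein-coding gene, 3 lay outside a gene but within 100 kb of one and 4 had none within 100 kb. A dHx Negative peak was present at 10 of them. The first 2 were copies of each other on chromosome 4 (chr4:122122861-122123074 and chr4:122455226-122455439), each 214 bp wide with scores of 51.7 in WT High, 74.6 in WT Middle and 79.8 in dHx Negative. They are better read as 1 observation, but the counts and shares given here hold both.

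The next in strength lay in Lrmda, a leucine-rich repeat gene of melanocytes (chr14:22348625-22349348), with scores of 41.9 in WT High, 51.1 in WT Middle and 14.5 in dHx Negative. The nearest dHx Middle peak was 21.7 kb away. A region of 1630 bp in Snx29, a sorting nexin gene (chr16:11686289-11687918), scored 32.5 in WT High, 43.8 in WT Middle and 9.17 in dHx Negative. A region of 2573 bp in Ulk4, a gene of the ULK kinase family (chr9:121268545-121271117), had the highest WT High score of the 15, at 77.9, with 38.0 in WT Middle and 27.9 in dHx Negative. All 3 were open in the RFP-negative mutant cells and had no peak in the positive ones.

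Scn8a, a voltage-gated sodium channel (chr15:100898379-100899310), had the same form, with 31.0 in WT High, 33.9 in WT Middle and 7.23 in dHx Negative. Cldn14, a claudin of tight junctions (chr16:93945923-93947299), scored 20.8 in WT High, 57.2 in WT Middle and 34.6 in dHx Negative. Greb1l, a coregulator gene of retinoic acid signalling on chromosome 18, and Vxn, a neural differentiation gene, also had a dHx Negative peak. So did a region of 380 bp on chromosome 10 (chr10:19188042-19188421) with no gene within 100 kb, with scores of 31.0 in WT High, 23.3 in WT Middle and 12.3 in dHx Negative. At Greb1l a dHx High peak stood 0.041 kb outside the lost region, the smallest such gap among the 15, a gap that depends on where peak edges were drawn.

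The other 5 of the 15 had no dHx Negative peak. Sgk1, a kinase induced by serum and glucocorticoids, held a region of 314 bp (chr10:21912736-21913049) with scores of 26.5 in WT High and 60.3 in WT Middle, 30.6 kb downstream of its listed start. The nearest dHx Middle peak was 10.7 kb away. A second Sgk1 region, 0.557 kb upstream of the listed start, was weak in both WT lists (2.19 and 5.61) and scored 15.6 in dHx Negative. Slc1a4, a neutral amino acid transporter (chr11:20310255-20311487), scored 22.2 in WT High and 25.9 in WT Middle. Cdkn3, a cell cycle phosphatase, was 75.6 kb from its region (22.2 and 24.6), and Tln2, a talin that links integrins to actin, was 26.7 kb from its region (20.8 and 45.2). The fifth lay on chromosome 12 (chr12:59754147-59755653) with no gene within 100 kb, scores of 29.5 and 35.3, and no dHx High or dHx Middle peak within 440 kb.

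At the Foxa2 gene 1 of 33 regions was lost. It was 359 bp wide (chr2:148099791-148100149), lay 52.8 kb upstream of the listed start, scored 5.97 in WT High and 4.73 in WT Middle and had no dHx Negative peak. The nearest dHx Middle peak was 14.4 kb away. Of the 4 WT RFP-positive regions nearest to Foxa2, 1 was lost, 2 were kept and 1 had a dHx High peak and no dHx Middle peak. A further region at the locus was gained. A kept region of 2868 bp downstream of the gene scored 22.2 in WT High. The region over the Foxa2 start was open in all 6 lists, RFP-negative cells included, with scores of 23.6 in WT High, 24.6 in WT Middle and 14.5 in dHx Negative. Over the whole locus 16 regions held a WT High peak and 16 a dHx High peak, 19 held a WT Middle peak and 20 a dHx Middle peak.

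The node and notochord list, which holds genes of the organizer and its midline derivative, had 4 lost regions among 31 WT RFP-positive ones (12.9%, interval 3.63 to 29.8%), beside 20.7% of all WT RFP-positive regions, while 17 were kept. Besides Foxa2 they lay at Noto, a homeobox gene of the node (chr6:85410807-85411282, 12.6 kb upstream), with scores of 7.04 and 7.47 in WT High and WT Middle, and at Gsc, the organizer homeobox gene goosecoid (chr12:104486296-104486605, 13.1 kb upstream), with 8.15 and 4.73. The last lay inside Nodal, the TGF-beta ligand that patterns the streak and the left-right axis (chr10:61419196-61419515, 1.22 kb downstream of the start), with 3.97 and 4.73. Nodal had a dHx Negative peak here, with a score of 5.41, and a dHx High peak 0.348 kb away. The single WT RFP-positive region of Gsc and that of Nodal were lost, while Noto had 1 lost and 1 kept of 3. Dnah11, a dynein of nodal cilia, had 3 of 3 kept, and Hhip, a hedgehog-binding protein, had 2 of 3 kept and none lost.

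The definitive endoderm list had 3 lost regions of 42 (7.14%, interval 1.498 to 19.5%) and 29 kept, beside the 20.7% lost among all WT RFP-positive regions. Beside Foxa2 and Gsc, which stand on both lists, the third was Kitl, the Kit ligand (chr10:100031780-100032172, 16.0 kb downstream of the listed start), with scores of 3.97 and 3.10. Cdh1, the epithelial cadherin, had 3 of 3 kept. The visceral endoderm list had 3 lost of 22 (13.6%) and 11 kept, the lost ones at Apoa1 (4.95 and 7.47), Foxa2 and Tfec, a bHLH factor of the MiT family (8.15 and 4.73). The Tfec region was 28.5 kb from the gene. Sox17, an endoderm HMG-box factor on the visceral endoderm list, had 2 of 2 kept. The lost regions of these 2 lists had no dHx Negative peak.

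In genes of adhesion and polarity 8 of 41 WT RFP-positive regions were lost (19.5%, interval 8.82 to 34.9%), near the 20.7% of all WT RFP-positive regions. Pard3, the scaffold of the apical PAR complex, had 2 lost and 4 kept of 7. The stronger of these (chr8:127367247-127367978, 67.6 kb downstream of the listed start) scored 28.0 in WT High, 17.2 in WT Middle and 8.19 in dHx Negative. The single WT RFP-positive region assigned to Pard6b, a partner of Pard3, was lost (4.95 and 8.45) and lay 27.4 kb from the gene. Prkcz, an atypical protein kinase C, lost its single one, inside the gene (3.97 and 7.47). Itga6 (integrin alpha 6), Lamb1 (a laminin chain) and Ovol2 (a zinc finger factor of epithelial identity) had 1 lost region each, 27.4, 0.813 and 1.05 kb from the gene. Magi1, a junction scaffold, had 1 inside it, with scores of 12.9 in WT High, 3.10 in WT Middle and 22.8 in dHx Negative. Cdh1 and Col4a2, a basement membrane collagen with 2 of 2 kept, had none lost.

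Among signalling genes of endoderm and node 5 of 46 regions were lost (10.9%, interval 3.62 to 23.6%) and 29 kept, and the interval holds the 20.7% of all WT RFP-positive regions. They lay at Nodal, at Wnt11, a non-canonical Wnt ligand (5.97 and 6.52), at Gli2, an effector of hedgehog signalling (3.97 and 5.61), at Fzd8, a Wnt receptor (7.04 and 5.61), and at Smad7, an inhibitor of TGF-beta signalling (2.19 and 4.73). The Fzd8 region was 64.7 kb from the gene. At Gli2 a dHx Middle peak stood 0.255 kb away and at Wnt11 one stood 0.739 kb away. Sfrp1, a secreted Wnt antagonist, had 4 of 4 kept and Bmp2, a BMP ligand, had 3 of 3 kept. The list of later endoderm organs had 2 lost of 14 (14.3%, interval 1.78 to 42.8%), both in Foxp1, a forkhead factor. One scored 3.05 and 5.61, and the other scored 4.95 and 4.73 with 5.41 in dHx Negative. Klf5, a Krüppel-like factor of gut epithelium, had 2 of 2 kept.

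The lists of other cell types, which sorted FoxA2-positive cells might also hold, gave small numbers. Blood and endothelium had 4 lost of 14 (28.6%, interval 8.39 to 58.1%), with 2 at Runx1, the blood stem cell factor, and 1 each at Emcn and Pecam1, endothelial surface proteins. The Runx1 regions scored 5.97 and 23.3 (with 19.1 in dHx Negative) and 29.5 and 4.73 in WT High and WT Middle. The Emcn region scored 9.29 and 9.46 and lay 29.7 kb from the gene, and that of Pecam1 lay 7.99 kb from the gene. Epiblast and neural genes had 3 lost of 15 (Ncam1, Pax3, Tcf7l1), lateral and cardiac mesoderm 2 of 14 (Bmp4, Foxc1), streak mesoderm 1 of 13 (Nodal), extraembryonic genes 1 of 7 (Bmp4) and ubiquitous genes 1 of 9 (Eef1a1). The Pax3 region was 19.15 kb from the gene, that of Bmp4 7.71 kb and that of Foxc1 5.06 kb. Kept regions without loss were present at Lhx1, Axin2, Meis1, Meis2, Kdr, Tek, Otx2, Six3, Id2, Eomes, Actb, Tubb5 and Gata5. Over the 286 distinct genes of all 12 lists 31 of 213 WT RFP-positive regions were lost (14.6%, interval 10.1 to 20.0%), beside 20.7% of all WT RFP-positive regions. Assigning each region to every gene within 100 kb, not the nearest alone, raised the number to 63.

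**Figure D4:**
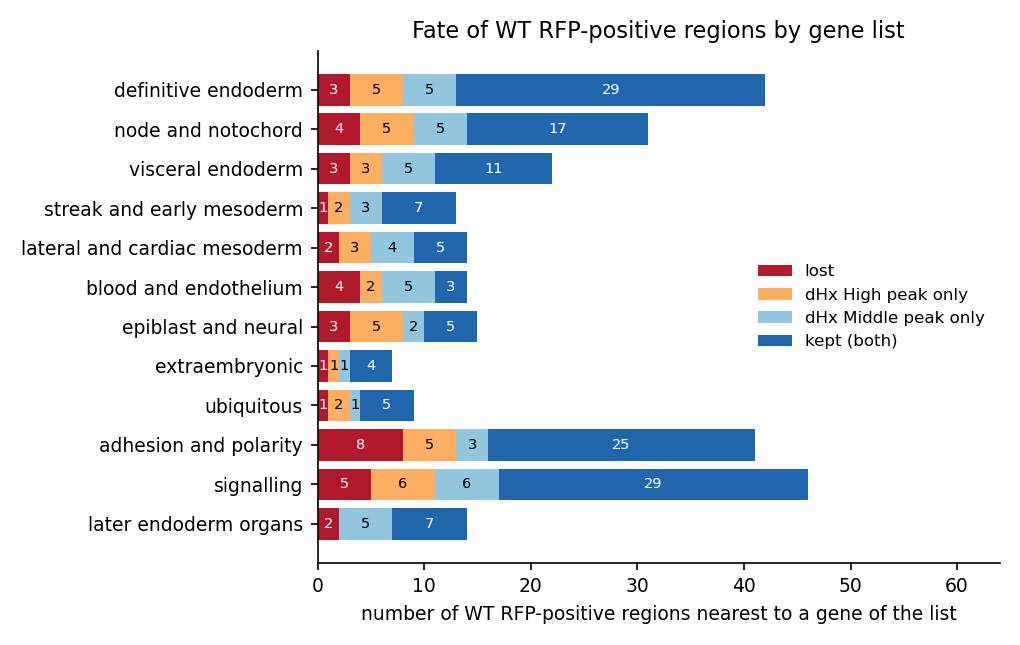
Number of WT RFP-positive regions nearest to a gene of each list, split into lost, dHx High peak alone, dHx Middle peak alone, and kept. Lost regions number between 1 and 8 per list, and in definitive endoderm 29 of 42 regions are kept.

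The lost regions were assigned to 1121 genes, 25.3% of the 4438 genes with a WT RFP-positive region. Only 108 of the 1121 had 2 or more. A kept region was also present at 277 of them, and at 2440 of the 4438 genes. Of the lost regions 687 (47.2%, interval 44.6 to 49.8%) lay inside or touched a protein-coding gene, beside 54.3% of all regions, and the share at kept regions was 57.1% (55.4 to 58.8%). In the set clear of the dHx limits the shares were 57.1% of lost (45.4 to 68.4%) and 52.9% of kept regions (49.2 to 56.7%), so among strong regions the order was the other way round and the intervals overlapped. A kept region lay within 50 kb of 273 lost regions (18.8%, interval 16.8 to 20.9%) and of 166 gained regions (24.9%, interval 21.6 to 28.4%). The share over all regions was not computed, so these values do not say whether lost regions lie nearer to or farther from kept ones than others.

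Most of the genes with the highest numbers of lost regions belonged to duplicated families. Mup10, a major urinary protein gene, and Zfp993, a zinc finger gene, had 9 each. Gm6346, Gm6348 and Mup22 had 6 each, Gm21977, Gm3183, Mup13 and Pramel44 had 5 each, and Gm2004, Llgl1, Mup-ps12 and Mup18 had 4. Apart from Llgl1 these lay in the 25 1-Mb bins with the most union regions (1% of the bins). These bins held 214 lost regions (14.7%), beside 7.46% of all regions and 2.44% of kept regions. Inside them 214 of 385 WT RFP-positive regions were lost (55.6%), outside them 1241 of 6661 (18.6%). On chromosome 4 the lost share was 33.2% with and 20.3% without these bins, on chromosome 14 it was 25.7% and 18.1%, and on chromosome 5 it was 23.7% and 17.6%. Without them the chromosomes ranged from 12.7% on chromosome 15 to 23.0% on chromosome 10.

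**Figure D5:**
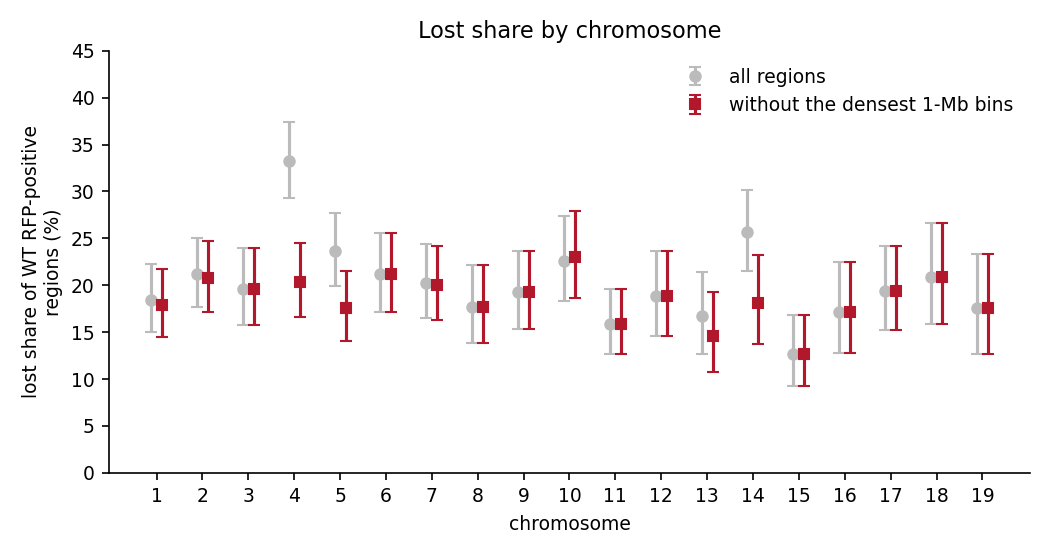
Lost share of WT RFP-positive regions per chromosome, in percent, for all regions (grey) and without the densest 1-Mb bins (red), with exact 95% binomial intervals. Chromosome 4 falls from 33.2% to 20.3% when those bins are left out.

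Some of these regions were copies that the lists could not tell apart. Regions within 2 Mb that had the same lists, the same width and the same scores were taken as copies. They made up 97 lost regions (6.67%) in 43 groups, beside 0.993% of kept and 3.895% of all regions. The largest group was 7 regions of 593 bp on chromosome 10 (chr10:104144320-104195966), repeated every 8.51 kb, with scores of 2.19 and 3.10. How reads matching several copies were placed was not given in the sources used here; what part copies have in the loss was not tested. Leaving out copies and dense bins left 1215 lost regions, of which 432 (35.6%) had a dHx Negative peak and 595 (49.0%) lay in genes.

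Outside the dense bins the gene with the most lost regions was Llgl1, a basolateral polarity protein, with 4 of 4 WT RFP-positive regions lost. They lay between 33.2 and 64.2 kb upstream of its start and were 897 to 1112 bp wide. Their WT High scores were 2.19, 4.95, 3.97 and 2.19 and their WT Middle scores 3.89, 6.52, 10.5 and 6.52, in genomic order. All 4 had a dHx Negative peak, with scores of 4.55, 6.30, 12.3 and 3.74. Apba2, a neuronal adaptor, Gpr31b, a receptor, and Prl2c3, a placental prolactin-family hormone, had 3 each, all under a strength of 42. These genes were named after their values were seen.

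Lost regions seldom lay at gene starts. A listed promoter window, 250 bases before to 50 after a start, was overlapped by 70 lost regions (4.81%, interval 3.77 to 6.04%), beside 12.7% of all regions and 12.8% (11.7 to 14.0%) of kept regions. Among all WT RFP-positive regions, from which the lost ones were drawn, the share was 9.99%. Without copies and dense bins the shares were 4.94% of lost and 13.1% of kept regions. Among regions clear of the dHx limits, 1 of 77 lost regions overlapped a window (interval 0.0329 to 7.02%). So did 50 of 714 kept regions (interval 5.24 to 9.13%) and 55 of all 946 (5.81%). There the order of lost and kept was the same, but their intervals overlapped. The 70 regions overlapped 79 windows, 55 of them of protein-coding genes. These windows had a median GC content of 53.0%, against 60.3% for windows in kept regions and 61.3% for windows in all regions, and a median of 8 CpG, against 19 and 20. The median over every listed promoter was 53.0% and 7 CpG. Without dense bins the windows in lost regions had a median of 55.8% and 11 CpG.

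Forkhead letters were found in 13 of the 79 windows (16.5%, interval 9.06 to 26.5%), among them those of Apoa1, Pde4c and Trp53rkb printed above. The near-identical windows of Gm6346, Gm6348 and Pramel40 were also among the 13, and their letters reach past the printed bases. Without the dense bins the letters were in 9 of 68 windows (13.2%, interval 6.23 to 23.6%). In the central 200 bp of all 79 windows they were in 6 (7.59%), against 10.3% for windows in kept regions, so the order of lost and kept windows turned. Every listed promoter of chromosomes 1 to 19 gave 13.5%, windows in kept regions 14.9% (12.01 to 18.1%), in gained regions 8.24% and in all regions 9.34%. Among windows under 55% GC, letters were found in 9 of 43 in lost regions (20.9%), 56 of 170 in kept regions (32.9%), and 18.5% of those in all regions. Without dense bins the number in lost regions was 5 of 33 (15.2%). Over whole windows the interval for lost regions held the value of kept regions and that of every listed promoter, so a difference was not detectable at this number. That interval treats copied windows as separate observations. TGTTTAC alone was in 4 of the 79 windows (5.06%) and in 44 of 551 windows in kept regions (7.99%).

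The edge of the choice can be seen in the distances to the next peak. The median gap from a lost region to the nearest dHx High or dHx Middle peak was 8.98 kb, the smallest 1 bp, and 73 lost regions had such a peak within 500 bp. Just outside the choice, 10 of the 5591 WT RFP-positive regions that were not lost had WT and dHx peaks that overlapped by under 50 bp. In 2 of these 10 the WT and dHx peaks did not overlap directly and were joined through a peak of another list.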

How the data were processed

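ATAC-seq peak lists from 12 samples in 6 groups were used, grouped by the genotype and RFP labels. Per the submitters' processing notes STAR 2.5.2a, MACS2 and build mm10 were used; their roles and settings, read totals and filters were not given in the sources used here. Names of the deposited peaks say that reads were pooled per group. The deposited score column has no name and is taken here as −log10 of a q-value or p-value, because its steps follow a Poisson tail. Its mean (background) was fitted to the 40 lowest distinct scores of each list, and fold is pileup over it; folds compare between lists only as an estimate. Lines with the same start and end were 1 peak.

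Peaks of chromosomes 1 to 19 overlapping by at least 1 bp were merged. Each region took the protein-coding gene nearest to it, up to 100 kb away, in a RefSeq table of GRCm38.p6, and 286 of 286 listed genes matched by symbol. Distances upstream or downstream use the listed start; 17491 of 21896 protein-coding genes had a listed promoter. No genome was used, so letters were searched in promoters and not in whole regions. Python 3.11.15, pandas 2.3.3, numpy 2.4.6, scipy 1.17.1 and matplotlib 3.10.9 were used, and merging and fitting were tested on simulated lists. There was no test between groups; intervals cover counting error only.

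Members and gene lists were chosen with earlier results of these data known. Named were Foxa2, the 15 strongest members, the 10 genes with most members, and from each list up to 4 genes with members and 2 without; 1 gene that this rule names is not reported here. The other list genes with a member, and genes tied for the last of the 10, were named after their values were seen. Alternatives varied joining, absence, score limits, list length, chromosomes, dense bins and gene distance. Those on depth and copies were chosen after seeing the data.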

Additional observations from a re-analysis of the deposited data

How the results depend on the processing

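No paired analysis was possible because each group is 1 pooled list with no value per replicate, so leaving out a replicate was not possible either. The 1455 lost regions became 172 when both WT peaks had to lie in the upper 50% of the scores of their list, 781 with lists of equal length, 593 with 1 common fold floor and 77 with WT folds at least 2 times the lowest of the dHx lists. Gained regions in these 4 settings numbered 33, 1047, 1272 and 87. The lost share was 8.46%, 15.01%, 12.7% and 8.14% there. It was 19.6% when absence meant no peak within 500 bp, 18.6% within 1 kb, 21.7% with X and Y kept and 18.6% without dense bins. The dHx Negative share rose to 55.2% among upper scores and to 62.3% at 2 times the floors. The share inside genes was 53.5% and 57.1% in those settings and 43.8% with X and Y kept. Taking every gene within 100 kb gave 63 lost regions at listed genes, and forkhead letters were in 7.59% of the central 200 bp of promoter windows. The first 4 settings left out weak peaks or the regions that held them. Lists of equal length and the common floor kept the dHx High list whole. The upper 50% of scores and the limit of 2 times the floors judged absence in the full lists. The cause of the changes was not tested in any setting. The planned search in whole regions was not run. Depth limits all counts of absence, since a missing peak in a shallow list does not show closed chromatin.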

Other observations

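The promoters of Edn1, Mest and Zfp296 lay in lost regions and were picked out after their values were seen. Edn1, the endothelin-1 gene, had a region over its start (chr13:42301369-42301893) with scores of 3.97 in WT High and 9.46 in WT Middle and the nearest dHx High peak 1.45 kb away. Mest, an imprinted gene of mesoderm, had one of 935 bp (chr6:30732783-30733717) with 11.7 and 2.35 and the nearest dHx High peak 2.93 kb away. Zfp296, a zinc finger gene of pluripotent cells, had one (chr7:19577142-19577463) with 3.97 and 12.6. The first 2 had no dHx Negative peak, and the third had one. With scores this near the lower end of a list in 1 of the 2 WT groups, each call rests on few reads.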
